A study of Mus musculus with 38 samples.

Results

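Primitive endoderm genes are 9 genes of 21938 protein-coding genes of the annotation: Gata6, Gata4, Sox17, Sox7, Foxa2, Hnf4a, Pdgfra, Dab2 and Lama1. They were chosen by name, with earlier results of these data known. Each was followed over its gene body and 5000 bp on either side (its window). The primitive endoderm is the cell layer of the blastocyst that faces the cavity and later forms the extraembryonic endoderm of the yolk sac. It arises from the same inner cells as the epiblast, where FGF signalling favours GATA6 over NANOG, and embryonic stem cells of the mouse stand for the epiblast side of that choice. Lineage genes of this kind are held by Polycomb in such cells: H3K27me3 is the Polycomb mark, H3K4me3 marks promoters, H3K27ac active promoters and enhancers, H3K4me1 enhancers and H3K9me3 heterochromatin.

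ChIP-seq (sequencing of immunoprecipitated chromatin) of these 5 marks had been carried out in ES-E14TG2a mouse embryonic stem cells, cultured in serum with leukaemia inhibitory factor and taken at 0 h, before any differentiation. IκBα-KO (KO) cells had Nfkbia, the gene of the NF-κB inhibitor IκBα, edited in exon 1 by CRISPR/Cas9, and IκBα-WT (WT) cells carried non-targeting guides. Per the study, 3 clones grown from sorted single cells were selected per genotype. Its checklist gives 3 clones per genotype for each experiment, and its methods call the 3 ChIP-seq replicates biological. The labels do not say which clone a replicate number stands for. The p-values measure the spread between these libraries. There were 3 WT and 3 KO libraries per mark, 30 of the 38 samples, and 8 inputs. The question was how the loss of IκBα alters the histone marks of pluripotent cells.

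The deposited lists of called regions gave between 8910890 and 10938375 ChIP reads per library in H3K27me3 calls. Reads in H3K9me3 calls numbered 8548342 to 12105343, those of H3K27ac 22943091 to 28339766, and those of H3K4me1 34736939 to 35951506. The H3K4me3 lists held 21836 to 26806 peaks and no counts. As a check of the cell type, H3K27ac was called over the 5′ end of 6 of 7 stem cell genes (Pou5f1, Nanog, Sox2, Zfp42, Klf4 and Tfcp2l1, not Esrrb) in all 6 libraries. It was also called there at 3 of 3 neuroectoderm, 2 of 3 mesendoderm and 2 of 3 trophectoderm genes and at 49% of all genes, so H3K27ac does not tell stem cells from these types. H3K27me3 was called over the 5′ ends of 3 of 3 mesendoderm, 3 of 3 neuroectoderm and 2 of 3 trophectoderm genes in all 6 libraries. It was also called there at 1 of 7 stem cell genes, Esrrb, and at 22% of all genes. Histone calls do not read the edited bases of Nfkbia, whose H3K4me3 covered 1226, 1168 and 1523 bp in WT and 235, 820 and 1286 bp in KO (limma adjusted p = 0.258). Single genes were also compared by an exact two-sided permutation test, but 3 against 3 libraries cannot give a p below 0.1. In bulk chromatin, fewer cells with a mark and less of the mark per cell cannot be told apart.

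H3K27me3 calls covered a large part of the windows of the 6 transcription factor genes and Pdgfra, and a small part of those of Dab2 and Lama1. The mean share of the window under H3K27me3 calls in WT was 100% for Foxa2, 93.1% for Sox17, 80.3% for Sox7, 77.7% for Gata4, 53.9% for Hnf4a, 52.8% for Gata6 and 37.7% for Pdgfra, against 9.99% for Dab2 and 4.19% for Lama1. Over the gene's 5′ end, H3K27me3 was called in all 6 libraries at 7 of the 9 genes, against 22% of all genes. Hnf4a had such a call in 2 WT and 2 KO libraries and Dab2 in none. H3K4me1 was called over the 5′ end in all 6 libraries at 7 of 9 genes (35.2% of all genes), H3K27ac at 4 of 9 (49%), H3K4me3 at 2 of 9 (28%) and H3K9me3 at 0 of 9 (1.34%).

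**Figure D1:**
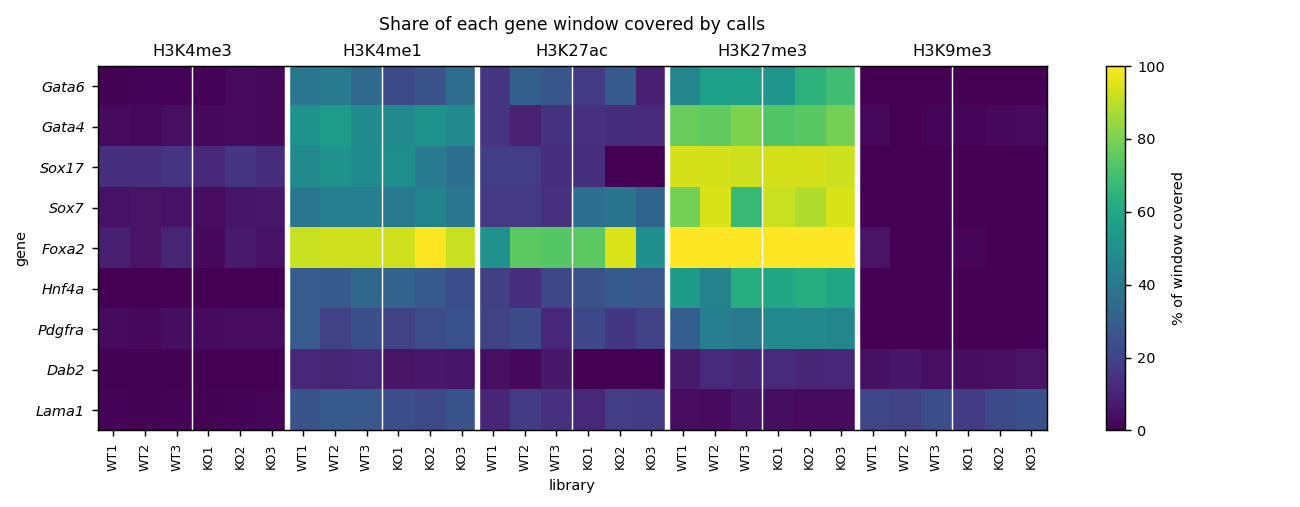
Percent of each gene window covered by calls (colour), with 1 row per gene and 1 column per library, grouped by mark and with WT1 to WT3 left of KO1 to KO3. The transcription factor genes are bright under H3K27me3 in both genotypes, Foxa2 at 100% in every library, and H3K9me3 is seen at Lama1 and Dab2 with traces at Gata4 and Foxa2.

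Nearly all H3K4me3 of these genes lay under H3K27me3 calls. Of the sequence with H3K4me3 in at least 2 of 3 WT libraries, 10030 bp lay in the 9 windows, and 98.3% of it was also under H3K27me3 in at least 2 of 3. In KO it was 96.5% of 10066 bp. Over all chromosomes the same share was 34.1% in WT and 28.3% in KO. Most of these peaks did not sit on the most upstream annotated start: only Sox7, a partner of Sox17 in the SoxF family, and Lama1, the α1 chain of the laminin of the early basement membrane, had H3K4me3 over it, in all 6 libraries. In Gata4 the widest recurrent peak, 25627 to 26948 bp downstream of the 5′ end, lay over 2 annotated starts at 26421 and 26444 bp. In Sox17 the main peak spanned 3450 to 5742 bp and was called in all 6 libraries. In Hnf4a, which encodes a nuclear receptor of the visceral endoderm and liver, H3K4me3 was called once, over 235 bp in WT2.

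Dab2, which encodes an endocytic adaptor of the visceral endoderm, held less H3K4me3 and less H3K4me1 in KO. The gene lies on chromosome 15 from 6299788 to 6440712 (GRCm38, plus strand) and has annotated starts at its 5′ end, at 86810 to 86991 bp from it, and further downstream at 89262, 90332, 122452 and 123374 bp. All its H3K4me3 lay between 86402 and 87321 bp, over the starts at 86810 to 86991 bp (called the downstream start here) and an untranslated exon. The sequences before the 5′ end and before the downstream start are shown because H3K4me3 met only the latter. In these RefSeq sequences (GRCm38.p6, plus strand, 5′ to 3′) capitals mark CpG, and each stops before the first annotated exon base.
Dab2 upstream start, chr15:6299539-6299787: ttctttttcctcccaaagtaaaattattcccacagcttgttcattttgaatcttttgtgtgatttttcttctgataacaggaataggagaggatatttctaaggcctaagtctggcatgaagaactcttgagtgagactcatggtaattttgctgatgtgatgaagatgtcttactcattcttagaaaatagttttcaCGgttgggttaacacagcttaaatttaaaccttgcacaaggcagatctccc
Dab2 downstream start, chr15:6386498-6386597: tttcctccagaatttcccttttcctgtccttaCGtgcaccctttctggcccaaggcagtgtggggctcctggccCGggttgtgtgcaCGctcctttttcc

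Over the whole 300 bp promoter of the RefSeq table (250 before the start, 50 after), the upstream start had 2 CpG and the downstream start 19, against a median of 7 over 32851 promoters. RefSeq places the downstream start at 86960 bp, past the first annotated start at 86810 bp. Only 3 of its 19 CpG are therefore in the sequence shown. Promoters with at least 19 CpG made up 28.1% of the table.

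H3K4me3 covered 794, 749 and 648 bp of the Dab2 window in WT1 to WT3, and 0, 407 and 0 bp in KO1 to KO3. The genotypes did not overlap, and KO2 was the only KO library with a peak. The difference was -0.394 percentage points of the window (SE 0.0844, limma adjusted p = 0.0432), and it was the one H3K4me3 call among the members. The window would have entered the test through its WT libraries alone, so the p is no separate support for a loss. Leaving out 1 library ended the call in 5 of 6 cases. The adjusted p was 0.137 without WT1, 0.121 without WT2, 0.0844 without WT3, 0.0777 without KO1 and 0.121 without KO3, and 0.0339 without KO2. In that last case the KO libraries left stood at 0 bp, so the window had to differ. The 8 members tested gave 0 higher and 1 lower, where 6.16% and 1.38% of 14520 windows were called higher and lower.

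H3K4me1 covered 16800, 16200 and 17200 bp of the Dab2 window in WT and 7800, 10200 and 8600 bp in KO. The genotypes lay far apart, with -5.21 percentage points of difference (SE 0.589, limma adjusted p = 0.0125, and 0.0506 without KO3). Among 4 stretches of H3K4me1, the one at 106613 to 109812 bp, in an intron, was called over 2800, 3200 and 2600 bp in WT and in no KO library. The stretch at the downstream start was shorter in every KO library, with 4600, 5800 and 5200 bp against 7400, 7200 and 7400 bp. Of 9 members tested for H3K4me1 cover, 0 were higher and 1 was lower, against 3.38% and 3.59% of 17210 windows.

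H3K27ac at Dab2 was seen in WT libraries alone, with 6400, 3800 and 10400 bp covered and 0 bp in each KO library. A call of 3600, 3800 and 3600 bp lay over the downstream start in WT, and a second of 2800 and 3200 bp lay over the intronic H3K4me1 stretch in WT1 and WT3. The window entered the test only through its WT libraries, so it had to differ. The difference of -4.55 points missed the threshold (limma adjusted p = 0.0783) and passed it on the arcsine square-root scale (adjusted p = 0.0158). H3K27me3 stood over the downstream start in all 6 libraries, with 8200, 7400 and 9600 bp in WT and 10200, 7800 and 9200 bp in KO. Input reads per kb of H3K4me1 calls at Dab2, on the log2 scale of KO over WT less the median of all windows, stood at -0.14, inside the -0.18 to 0.34 between the 5th and 95th percentiles. The window also touches C9, a complement gene downstream of Dab2.

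**Figure D2:**
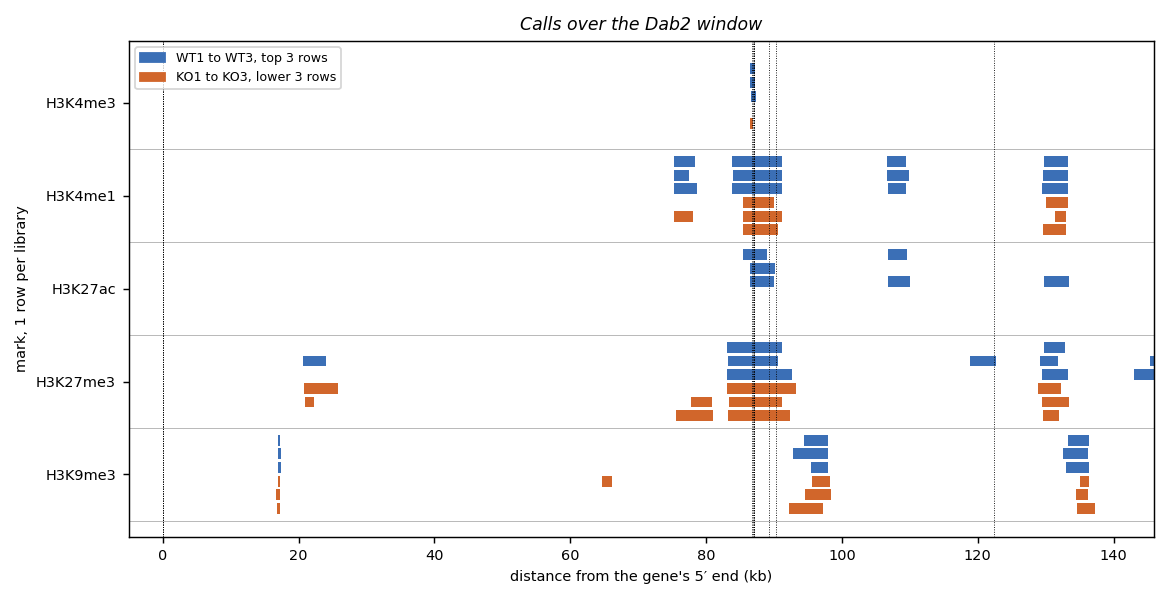
Calls over the Dab2 window by distance from the gene's 5′ end in kb, with 6 rows per mark, WT1 to WT3 above KO1 to KO3, and dotted lines at the starts of coding transcripts. H3K27ac is present in WT rows only, H3K4me3 in 3 WT rows and 1 KO row, and the H3K27me3 call over the downstream start in all 6 rows.

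Sox7 had H3K27ac calls that reached further upstream of its start in KO. It lies on chromosome 14 from 63943673 to 63950732 (plus strand), with a single annotated start. H3K27ac covered 2800, 2800 and 2400 bp of the window in WT1 to WT3 and 6200, 6600 and 5528 bp in KO1 to KO3. Every KO library was above every WT library, by 20.2 percentage points of the window (SE 2.2, limma adjusted p = 0.00972). Counted from the start of the gene, WT calls began at -2072, -1872 and -1872 bp and KO calls at -4672, -4872 and -5000 bp, the last being the edge of the window. Inside the gene, WT calls ended at 727, 927 and 527 bp and KO calls at 1527, 1727 and 527 bp. Without the flanks the difference was 7.55 points and the call was lost (adjusted p = 0.467), and it held without any 1 library (0.0278 to 0.0412). It was the one member called for H3K27ac cover, 1 higher and 0 lower of 9, where 6.5% and 2.88% of 15897 windows were called. Genome-wide, H3K27ac calls covered 381.56, 380.45 and 392.53 Mb in WT and 410.56, 419.25 and 415.34 Mb in KO. The median window rose by 2.17 points, and the part of this widening in the Sox7 difference was not tested. H3K27ac reads per kb of called sequence at Sox7 gave no call (log2 -0.09, edgeR adjusted p = 0.667). By at least 2 of 3 libraries, all 2600 bp of H3K27ac in WT and all 6400 bp in KO lay under H3K27me3. H3K27me3 itself covered 13528, 16060 and 11528 bp in WT and 15660, 15060 and 16060 bp in KO, overlapping groups. H3K4me1 over Sox7 averaged 7128 bp in both genotypes. With at least 2 of 3 libraries counted as marked, 64.5% of the H3K4me1 sequence carried no H3K27ac in WT and 7.62% in KO.

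H3K27ac cover averaged less in KO at Sox17 and more at Hnf4a, and neither passed the test. Sox17, the SoxF factor that marks maturing primitive endoderm, had 3000, 3000 and 2200 bp in WT and 2200, 0 and 0 bp in KO, so KO1 lay within the WT range (limma adjusted p = 0.143, and 0.0367 without KO1). Hnf4a had 14393, 10193 and 16193 bp in WT and 18793, 21593 and 20793 bp in KO, groups that did not overlap (8.94 percentage points, SE 2.52, limma adjusted p = 0.0957). In an intron of Hnf4a, 29593 to 36592 bp from the 5′ end and upstream of its second group of starts, H3K27ac was called over 2600, 4400 and 6000 bp in KO and in no WT library. The Hnf4a window also holds R3hdml, a neighbouring coding gene. At Sox17, 62.5% of the H3K4me1 sequence was without H3K27ac in WT and 100% in KO.

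Pdgfra held less H3K27me3 per kb of called sequence in KO. This receptor tyrosine kinase gene, used as a surface marker of primitive endoderm, had 80.3, 77.1 and 76.4 ChIP reads per kb of called sequence in WT and 65.2, 65.4 and 62.7 in KO. The groups did not overlap, and the log2 difference after normalisation was -0.27 (SE 0.06, edgeR adjusted p = 0.0469). The gene lies on chromosome 5 from 75152292 to 75198215 (plus strand). Its sequence before the start, inside the H3K27me3 domain in all 6 libraries, is shown with CpG in capitals (RefSeq, GRCm38.p6, plus strand).
Pdgfra, chr5:75152001-75152250: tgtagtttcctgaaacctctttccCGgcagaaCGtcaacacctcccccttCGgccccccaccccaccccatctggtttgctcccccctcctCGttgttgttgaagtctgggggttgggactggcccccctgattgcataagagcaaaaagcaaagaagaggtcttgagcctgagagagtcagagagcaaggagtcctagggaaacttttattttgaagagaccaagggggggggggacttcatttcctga

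This promoter had 5 CpG in 300 bp, and H3K4me3 was called downstream of it, at 619 to 1439 and 3278 to 4737 bp, in all 6 libraries. The Pdgfra call is close to the threshold: without any 1 of the 6 libraries its adjusted p was 0.0596 to 0.145, at a log2 difference of -0.29 to -0.27. It was lost without flanks (0.0515) and in the promoter window alone (log2 -0.10, adjusted p = 0.656). The covered length went the other way in every KO library. H3K27me3 covered 16709, 23909 and 22709 bp in WT and 26509, 26309 and 25709 bp in KO, which did not overlap (9.06 percentage points, SE 4.45, limma adjusted p = 0.388). A stretch 32709 to 38308 bp from the 5′ end was called in 1 WT and 3 KO libraries. Longer calls and fewer reads per kb were thus seen together, and the part of length in the density was not tested. Over the genome, H3K27me3 calls covered 214.07, 258.9 and 258.66 Mb in WT and 278.2, 276.9 and 266.62 Mb in KO. The part of this widening in the longer Pdgfra calls was not tested.

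Gata6, the factor whose level sets the primitive endoderm choice against Nanog, had the same order of groups and missed the threshold. It had 92.3, 84.9 and 84.9 H3K27me3 reads per kb in WT and 76.0, 72.1 and 67.4 in KO, with no overlap (log2 -0.28, SE 0.06, edgeR adjusted p = 0.0654). DESeq2's Wald test called it (adjusted p = 0.00996). The gene lies on chromosome 18 from 11052064 to 11085635. A stretch over its 3′ end, 31737 to 36936 bp from the 5′ end, was under H3K27me3 in 0 WT and 3 KO libraries, over 4600, 4600 and 2800 bp. H3K27me3 covered 19937, 24537 and 24537 bp of the window in WT and 22937, 27937 and 30137 bp in KO, overlapping groups (limma adjusted p = 0.495). The part of call length in the Gata6 density was not tested, nor was that of the genome-wide widening in the stretch over its 3′ end. H3K4me3 covered 312, 349 and 384 bp of Gata6 in WT and 457, 1290 and 1009 bp in KO, groups that did not overlap (limma adjusted p = 0.13, and 0.0146 without KO1). H3K4me1 covered 17172, 18172 and 15035 bp in WT and 10000, 11137 and 15572 bp in KO, where KO3 lay among the WT libraries (limma adjusted p = 0.2). Its H3K4me1 density differed by log2 0.23 (edgeR adjusted p = 0.228, and 0.36 with adjusted p = 0.0207 without KO3). Input reads per kb of the H3K27ac calls at Gata6 stood at log2 -0.34, below the 5th percentile of windows (-0.18).

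**Figure D3:**
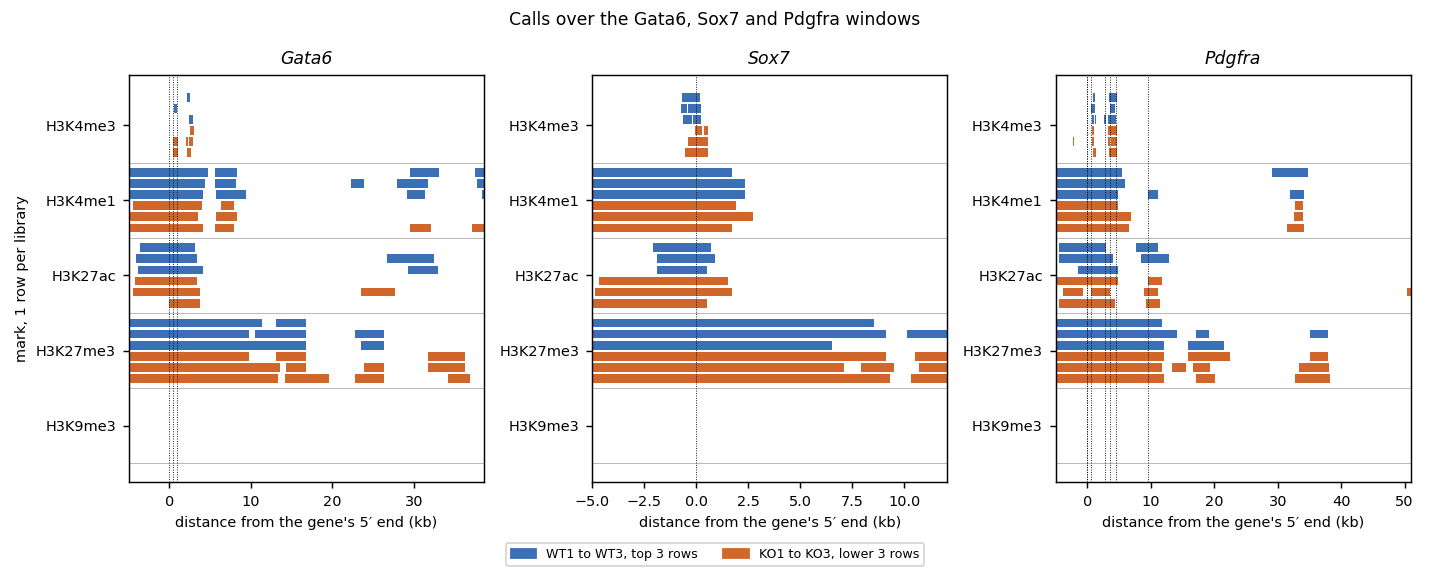
Calls over the Gata6, Sox7 and Pdgfra windows by distance from the 5′ end in kb, drawn as 6 rows per mark with WT1 to WT3 above KO1 to KO3 and dotted lines at starts of coding transcripts. Sox7 H3K27ac reaches further upstream in the KO rows, and H3K27me3 stretches beyond 30 kb are in 3 KO rows and 0 WT rows at Gata6 and in 3 KO rows and 1 WT row at Pdgfra.

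For H3K27me3 density, 0 of 9 members were higher and 1 was lower, against 1.05% and 0.524% of 9733 windows, and the members' median was log2 -0.05 against 0.00 for all windows. For H3K27me3 cover, 0 members were higher and 0 lower by limma, against 1.19% and 1.13% of 11826 windows, and 0 members had an unadjusted p under 0.05. The medians were 1.41 points for the members and 0.504 for all windows. Foxa2, a forkhead factor of definitive and visceral endoderm, was covered end to end in all 6 libraries, so its cover could not rise, and its density was 86.0, 70.4 and 81.3 reads per kb in WT and 74.2, 74.8 and 81.0 in KO. Gata4, the GATA factor downstream of Gata6, had 71.7, 81.9 and 72.7 in WT and 75.8, 76.1 and 66.4 in KO, where the groups overlapped and KO3 was below every WT library. Sox17 (log2 -0.20, edgeR adjusted p = 0.398) and Sox7 (log2 -0.24, adjusted p = 0.419) had overlapping groups. Hnf4a (29.0 and 30.6 as group means), Dab2 (34.2 and 36.8) and Lama1 (40.2 and 38.8) held fewer reads per kb than the other members, whose group means were 64.4 to 88.9.

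**Figure D4:**
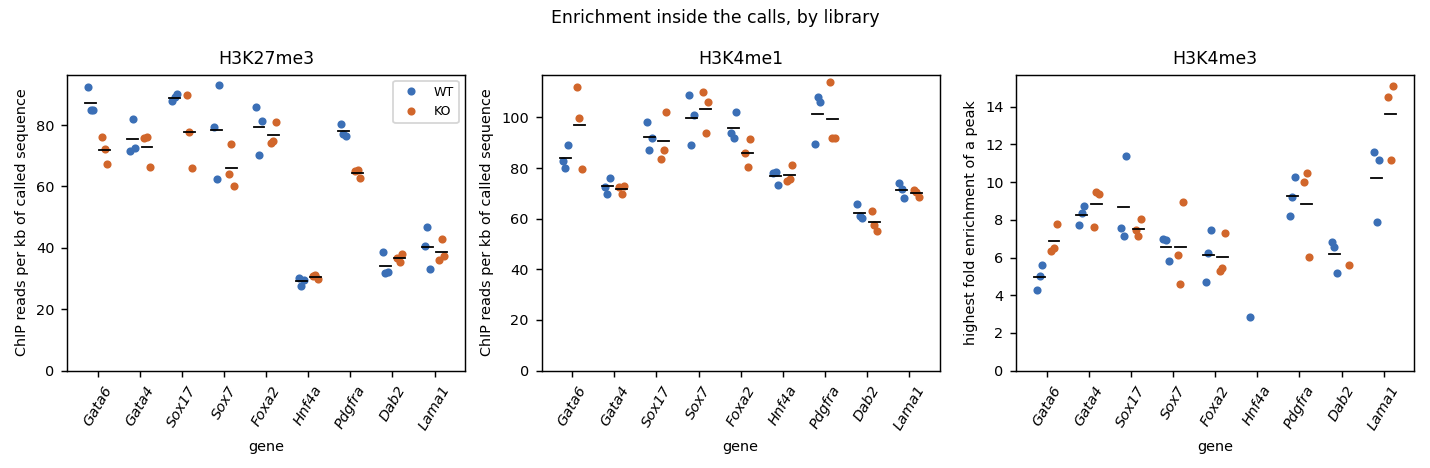
Left and middle, ChIP reads per kb of called sequence of H3K27me3 and H3K4me1, and right, the highest fold enrichment over input among the H3K4me3 peaks of the window, with 1 point per library and a line at the mean of 3. Gata6 and Pdgfra have all WT points above all KO points for H3K27me3, while most other pairs of groups overlap.

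The strength of H3K4me3, H3K27ac and H3K4me1 inside calls gave no call among the members. The highest H3K4me3 fold enrichment was tested at 7 members, with 0 higher and 0 lower, where 9.96% and 10.7% of 13533 windows were called, and 0 of 7 had an unadjusted p under 0.05 by limma. At Gata6 it was 4.25, 5.01 and 5.61 in WT and 6.32, 6.53 and 7.77 in KO, without overlap (log2 0.39, limma adjusted p = 0.207). At Lama1 it was 11.6, 7.87 and 11.2 in WT and 14.5, 11.2 and 15.1 in KO, overlapping. For H3K27ac density, 0 of 7 members were higher and 0 lower, against 6.99% and 2.37% of 14625 windows. At an unadjusted p under 0.05 edgeR gave 2 members, Foxa2 (log2 -0.21) and Lama1 (log2 -0.13), each at an adjusted p of 0.199. DESeq2's Wald test called 0. The share of all windows at that unadjusted threshold was not counted, so these 2 are not read as a result about the members. For H3K4me1 density, 0 of 9 were higher and 0 lower, against 5.62% and 2.66% of 16679 windows, with 0 members under 0.05 unadjusted by edgeR and 0 called by DESeq2. Foxa2 had 94.0, 91.8 and 102 H3K4me1 reads per kb in WT and 85.8, 80.4 and 91.5 in KO, which did not overlap (log2 -0.13, edgeR adjusted p = 0.255).

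H3K9me3 was called in 4 of the 9 windows in these lists. Calls in at least 3 of 6 libraries were found at 3 of the 9, and at 9145 of all 21938 windows. Lama1 held most of it, with 28847, 26847 and 32647 bp in WT and 23447, 30447 and 33247 bp in KO, in stretches that began 39942, 88542, 99542 and 117942 bp from the 5′ end, each with coding exons. Dab2 had 7000, 9200 and 6400 bp in WT and 5800, 6200 and 8000 bp in KO. Gata4 had 1800, 0 and 1200 bp in WT and 1400, 2000 and 2400 bp in KO, and Foxa2 was touched in WT1 and KO1. Of 3 members tested for cover, 0 were higher and 0 lower by limma (0.7% and 2.59% of 9145 windows), and of 2 for density, 0 and 0 by edgeR (0.261% and 0.832% of 6130 windows). At an unadjusted p under 0.05 there were 0 members by limma for cover and 0 by edgeR for density, and DESeq2 called 0. Lama1 also had less H3K4me1 in each KO library, 32342, 30142 and 34542 bp against 35142, 38142 and 37742 bp (limma adjusted p = 0.202).

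Sequence that all 3 libraries of a genotype shared and no library of the other genotype had was a small part of the windows. For H3K4me1, 2.85% of the 217916 bp called in any library of the 9 windows was WT-only and 0.642% KO-only, against 1.19% and 1.45% over all windows. Dab2 held 4000 of those 6200 WT-only bp. For H3K27ac, 1.9% was WT-only and 4.29% KO-only, against 1.13% and 2.27%. The KO-only part came mainly from Sox7 and Hnf4a, with 2600 bp each. For H3K27me3, 0.291% was WT-only and 0.8% KO-only, against 1.01% and 1.88%, and all 2200 KO-only bp lay in Gata6. Bases in overlapping windows count more than once in the shares over all windows, and no test was run on them.

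Promoter sequences were found in the RefSeq table for 4 of the 9 genes, Foxa2, Hnf4a, Pdgfra and Dab2, as 8 promoters. Hnf4a is shown because it is the member almost without H3K4me3 (plus strand, CpG in capitals).
Hnf4a upstream start, chr2:163506607-163506807: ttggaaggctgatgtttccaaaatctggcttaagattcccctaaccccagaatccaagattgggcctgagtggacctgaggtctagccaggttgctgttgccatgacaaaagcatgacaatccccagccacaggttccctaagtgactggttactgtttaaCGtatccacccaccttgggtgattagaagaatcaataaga

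The Hnf4a promoter at the upstream start had 4 CpG in 300 bp, and those of Foxa2 had 12, 23 and 13. AGATAA, the letters a GATA factor prefers, searched on both strands, was found in 1 of the promoters of each of Foxa2, Hnf4a (upstream start) and Dab2 (upstream start), and in 11.2% of all promoters of the table. ATTGTT, letters of SOX factors, was found in 0 of the 8 and in 10.7% of all. A match is a description of the sequence only.

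Of 25 further genes of the extraembryonic endoderm, few passed a test. H3K4me3 cover was lower at 1 of 19 tested, Krt18, a keratin of the first epithelia (-4.17 points, limma adjusted p = 0.0195), against 1.38% of all windows. H3K4me1 cover was lower at 1 of 25 (3.59% of windows), Afp, the yolk sac α-fetoprotein (-9.23 points, adjusted p = 0.031). H3K27ac cover was higher at 1 of 23 and lower at 2, against 6.5% and 2.88% of windows. Of the lower, Amn, a subunit of the cubilin receptor, fell by 57.2 points (limma adjusted p = 0.0041) and Apob, the apolipoprotein, by 3.52 points (adjusted p = 0.0112). Amn also had the 1 lower H3K27me3 cover of 23, against 1.13% of windows (-32.2 points, adjusted p = 0.0275). Amn's input reads per kb in KO stood at log2 -0.80 in H3K27me3 calls (5th percentile of windows -0.26) and -1.0 in H3K4me1 calls (5th percentile -0.18), both less the median window, and its part in these results was not tested. H3K4me3 fold enrichment was higher at 1 of 15 and lower at 2, against 9.96% and 10.7% of windows. The lower were Cubn (log2 -0.75, limma adjusted p = 0.0227) and Dkk1 (log2 -0.67, adjusted p = 0.0469). Density was lower for H3K27ac at 1 of 17 (2.37% of windows), Krt18 (log2 -0.39, edgeR adjusted p = 0.0183), and for H3K4me1 at 2 of 25 (2.66% of windows), Amn (log2 -0.62, adjusted p = 5.03e-05) and Krt8 (log2 -0.20, adjusted p = 0.0213). The median change in H3K27ac cover was -1.55 points in this list against 2.17 over all windows, and in H3K4me1 cover -2.66 against -0.691.

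The list of FGF-ERK signalling, the pathway that drives the choice for primitive endoderm, had 12 genes. H3K4me3 fold enrichment was higher at 3 of 12 (9.96% of windows), of which Grb2, the adaptor between receptor and RAS, by log2 0.80 (limma adjusted p = 0.00176). H3K4me3 cover was higher at 1 of 12 (6.16% of windows), Spry4, a feedback inhibitor (22.5 points, adjusted p = 0.0244). H3K27ac density was higher at 3 of 12 (6.99% of windows), with Etv4 (log2 0.38, edgeR adjusted p = 0.0462) and Spry4 (log2 0.28, adjusted p = 0.0453) as the largest. H3K4me1 cover was lower at 1 of 12 (3.59% of windows), Fgf4, the ligand secreted by epiblast cells (-3.59 points, limma adjusted p = 0.00873), and density was higher at 1 of 12 (5.62% of windows), Grb2 (log2 0.18, edgeR adjusted p = 0.00575). For H3K27me3 cover, limma called 0 of 6 genes, against 1.19% higher and 1.13% lower of 11826 windows, and 2 had an unadjusted p under 0.05. For H3K27me3 density, edgeR called 0 of 5, against 1.05% and 0.524% of 9733 windows. There 1 had an unadjusted p under 0.05, and DESeq2 called 0. The shares of all windows at that unadjusted threshold were not counted.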

How the data were processed

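The study's methods state that the authors trimmed reads with Trim Galore 0.6.6, aligned H3K4me3, H3K27me3 and H3K4me1 with Bowtie2 2.4.4 to GRCm38, and removed reads of low mapping quality, multiple mapping and blacklisted sequence. The aligner of H3K27ac and the steps before region calling for H3K9me3 are not given in the sources used here. For H3K4me3 the authors deposited MACS2 2.2.7.1 peaks with a fold enrichment over input (a ratio) and −log10 p and q values. For the other marks the deposited epic2 regions, in steps of 200 bp, hold the count of ChIP and input reads and a p-value and FDR. Calls were made per library against 1 input per genotype. The labels give H3K27ac the antibody of H3K4me1, while the methods name another.

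Calls were intersected with windows of 21938 GENCODE M21 genes (Python 3.11.15, pandas 2.3.3, numpy 2.4.6, SciPy 1.17.1, matplotlib 3.10.9). Cover, in percent of the window, was tested with limma 3.58.1 where at least 3 of 6 libraries had a call. ChIP counts of whole calls were tested with edgeR 4.0.16 (R 4.3.3, quasi-likelihood, TMM, call length as offset) where all 6 had one, and log2 H3K4me3 fold enrichment, centred per library, with limma. A call needed a Benjamini-Hochberg adjusted p under 0.05 over all windows of a mark. DESeq2 1.42.0 was an alternative. The scripts were tested on simulated data. Members of the 9-gene list and of the 2 further lists were chosen with earlier results of these data known. Every member was named, and at most the 2 called genes of largest change per mark and measure of the further lists. A called gene of the FGF-ERK list is not reported here.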

Additional observations from a re-analysis of the deposited data

How the results depend on the processing

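Of the members' values under alternative settings, 921 kept their side of the threshold, 22 lost a call, 10 gained one and none reversed a call. The Dab2 H3K4me3 call was lost with windows covered in at least 1 library (adjusted p = 0.0604), on the arcsine scale (0.0851) and without flanks (0.0584, where Sox7 was called instead, 4.65 points). H3K4me3 cover thus had 1 member called, and 0 with windows of at least 1 library, on the arcsine scale or in promoters (5000 bp upstream to 100 bp downstream), where Dab2 was not tested. H3K27ac cover had 1, 2 on the arcsine scale and 0 without flanks, the added one being Dab2, whose KO libraries were all at 0 bp and which had to differ. H3K4me1 cover had 1, 2 without flanks (Sox17 added) and 0 in promoters, again without Dab2. H3K27me3 density had 1, 2 with library totals and 2 with DESeq2 (both added Gata6), and 0 without flanks, in promoters or among calls of like length, where Pdgfra could not be tested. H3K27ac density had 0 of 7 tested, and 2 with library totals (Foxa2 and Lama1). Library totals called 4516 of 14625 windows for this measure, so these 2 are not read as a result about the members.

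Leaving out 1 library gave 0 to 1 members for H3K4me3 cover, 1 to 2 for H3K27ac cover, 0 to 1 for H3K4me1 cover, 0 for H3K27me3 density and 0 to 1 for H3K4me1 density. Over all windows, cover called with all libraries against the range without 1 was 1096 against 106 to 1307 (H3K4me3), 275 against 19 to 175 (H3K27me3), 1492 against 554 to 1087 (H3K27ac), 1199 against 439 to 583 (H3K4me1) and 301 against 131 to 294 (H3K9me3). For H3K4me3 fold enrichment it gave 1863 to 2026 (2799), and for density 66 to 170 for H3K27me3 (153), 4 to 37 for H3K9me3 (67) and 809 to 929 for H3K27ac (1368).

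With a replicate block the counts over all windows were 429 for H3K4me3 cover and 0 for the cover of each other mark, and 96, 9 and 795 for H3K27me3, H3K9me3 and H3K27ac density, and each member call became 0. Deviations of same-numbered libraries from their group means correlated at -0.0999 to 0.0872, so the numbers do not pair the libraries, and these losses are not read as weaker effects.

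In promoters the counts were 514, 171, 118, 312 and 315 for cover of H3K4me3, H3K27me3, H3K9me3, H3K27ac and H3K4me1, and 50, 0, 354 and 534 for density of the last 4 marks. Without flanks H3K4me3 cover gave 650 and H3K9me3 density 37. Windows of at least 1 library gave 171 for H3K9me3 cover. DESeq2 gave 344 for H3K27me3 and 138 for H3K9me3, and calls of like length 231, 28 and 615 for H3K27me3, H3K9me3 and H3K27ac. Library totals gave 379 for H3K27me3 and 4516 for H3K27ac. They moved the median window by log2 -0.14 for H3K27me3, 0.16 for H3K9me3 and -0.15 for H3K27ac, and the share of calls that were higher from 66.7% to 9.23%, from 23.9% to 82% and from 74.7% to 10.5%. The cause was not tested. With 3 libraries per genotype and calls made separately in each, a region just under the caller's threshold reads as absent.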
